A study of Mus musculus with 8 samples.

Results

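Carriers of the minority reporter are single Tri-PyMT tumour cells that hold at least 1 count of the reporter transcript that is scarce in their own sorted population. They were selected on that count among cells with 1000 or more counts. In libraries labelled GFP+ the scarce transcript is the row CUSTOM_GFP, and in libraries labelled RFP+ it is the row CUSTOM_RFP. The rule found 954 carriers among 5620 cells with enough counts, of 7400 cells in all. They were 206 of 1419 and 172 of 1233 cells in the 2 libraries labelled GFP+, and 307 of 1545 and 269 of 1423 cells in the 2 libraries labelled RFP+. Cells of the same library with 0 such counts, called other cells here, numbered 1213 and 1061 in the GFP+ labelled libraries and 1238 and 1154 in the RFP+ labelled libraries. The question was whether the rest of a carrier's transcriptome lies between the populations. It was also asked whether minority counts are spread as if every count of a library had the same chance of being one.

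The mT/mG reporter sits in the Rosa26 locus. It makes a red fluorescent membrane protein until Cre recombinase cuts out the red cassette, and a green one afterwards, so a cell whose only reporter allele has been cut can no longer transcribe the red cassette. Protein and RNA made before the cut decay with time, so a recently switched cell can hold both. Cre is driven in this model by the promoter of Fsp1, also named S100a4, a calcium-binding protein gene of fibroblasts and of tumour cells that have lost epithelial features. In droplet assays, RNA freed from broken cells is also captured, and gives most barcodes a few counts of abundant transcripts.

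Both populations came from Tri-PyMT cells, cultured cells of a breast tumour from a triple transgenic MMTV-PyMT:Fsp1-cre:Rosa26mT/mG mouse. GFP+ and RFP+ cells, which share all 3 transgenes, were separated by fluorescence and profiled by Drop-seq, which pairs each cell with a barcoded bead and counts polyadenylated RNA. The 8 labelled samples are lanes: each population was made into 2 libraries and each library was run on 2 lanes, so every group below has n = 2. No label gives the mouse's age, the number of clones in the line, or separate cultures for the libraries. Spreads and p-values therefore cover only these libraries and may be technical. Kept cells had a median of 1434 and 1374 counts in the GFP+ labelled libraries and 1394 and 1440 counts in the RFP+ labelled libraries, and library totals over kept cells lay between 2045844 and 2677026 counts. The libraries shared 2 barcodes, and none of those cells had 1000 counts.

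The reporter rows went against the labels in every library. CUSTOM_GFP stood at 97.8 and 105 CPM (counts divided by the library total, taken without the reporter rows, and put on one scale) in the libraries labelled GFP+, against 606 and 583 CPM in those labelled RFP+. For CUSTOM_RFP the levels were 2958 and 3103 CPM where the label was GFP+, against 134 and 136 CPM where it was RFP+. Each library therefore had 1 abundant reporter, called the majority reporter here, and 1 scarce one. All populations are named as the libraries are labelled, and a direction drawn between them is a direction between labels. The minority reporter made up 3.20% and 3.27% of all reporter counts in the GFP+ labelled libraries and 18.1% and 18.9% in the RFP+ labelled libraries.

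Marker genes of the line's own tissue were found in both populations. Keratin genes such as Krt18 and mesenchymal genes such as Vim were present in carriers and other cells of every library. Of 22 immune markers, 10 had a row, and their summed level was at most 37.8 CPM in carriers and between 24.8 and 62.2 CPM in other cells, lower in carriers of all 4 libraries. Lyz2, a myeloid gene, had 0 counts in every group, and Ptprc, the pan-leukocyte CD45 gene, had 0 counts in the carriers of every library. Between 5 and 8 of the 10 were at 0 in the carriers of a library and between 3 and 7 in its other cells. The 1 immune gene abundant enough to be tested had log2 folds of -0.84 (GFP+) and -0.67 (RFP+) and was not called. The 6 endothelial markers with a row summed to 1.51 to 5.72 CPM in carriers and to 3.47 to 7.26 CPM in other cells, with Cldn5 and Esam at 0 throughout. The 7 fibroblast markers with a row summed to 58.7 and 77.2 CPM in GFP+ labelled carriers, against 60.6 and 70.4 CPM in other cells. In RFP+ labelled libraries they summed to 13.6 and 16.2 CPM in carriers, against 13.4 and 7.77 CPM in other cells.

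Among genes that reached 100 CPM in one of the populations, 2064 in all, the 2 reporters had the lowest level in the poorer population relative to the richer one. CUSTOM_RFP in the RFP+ labelled libraries stood at 4.45% of its level in the GFP+ labelled libraries. CUSTOM_GFP in the GFP+ labelled libraries stood at 17.1% of its level in the RFP+ labelled libraries. The next lowest were Emp3, a small membrane protein gene, at 32.8% and S100a4 at 33.5%. Relative to their level in the other population, the minority reporters were thus scarcer than any other gene of that abundance, and still above 0 in every library. By level alone they were not the scarcest, since Emp3 was at 52.7 and 47.5 CPM in the RFP+ labelled libraries, under CUSTOM_RFP at 134 and 136 CPM.

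How many cells were carriers, and how the counts fell over cells, was set against an equal share, in which every count of a library has the same chance of being a minority reporter count. Cells with more counts are then expected to hold more of them, so this is not an equal number per cell. In the GFP+ labelled libraries 14.5% and 13.9% of cells were carriers, where equal shares gave 15.1% and 15.7%. In the RFP+ labelled libraries 19.9% and 18.9% were carriers, where equal shares gave 20.1% and 20.6%. With each cell thinned to 1000 counts, carriers made up 8.53% and 9.33% of cells in the GFP+ labelled libraries and 12.2% and 12.4% in the RFP+ labelled libraries. The share of carriers was slightly under the equal share in all 4 libraries, and most carriers held a single count.

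Cells with 2 or more minority counts were more numerous than at equal shares in GFP+ labelled libraries. They numbered 28 in library 1, where 20.7 were expected, and 35 in library 2, where 19.1 were expected. Over both, 63 such cells stood against 39.8, a ratio of 1.58 with an exact 95% Poisson interval of 1.22 to 2.02. The excess was clear of counting error in library 2, at a ratio of 1.83 (1.28 to 2.55), and not in library 1, at 1.35 (0.898 to 1.95). In RFP+ labelled libraries the counts of such cells were 40 in library 1, where 41.4 were expected, and 53 in library 2, where 39.6 were expected. The ratios were 0.965 (0.690 to 1.31) in library 1 and 1.34 (1 to 1.75) in library 2. Over both, 93 stood against 81.0, a ratio of 1.15 (0.926 to 1.41), which does not separate them from an equal share. These intervals cover counting error only, and take counts as independent molecules, which the sources used here do not state. After thinning to 1000 counts the ratio was 1.56 (0.925 to 2.47) in GFP+ labelled libraries and 1.42 (0.994 to 1.96) in RFP+ labelled libraries, on 18 and 36 cells. RFP+ library 2 alone was then at 1.72 (1.08 to 2.60). The majority reporter, before thinning, departed from equal shares too. Its squared deviation over the expected count, averaged over cells, would be 1 at equal shares. It was 1.30 in both GFP+ labelled libraries, and 1.24 and 1.14 in the RFP+ labelled ones. For the minority reporter it was 1.10 and 1.13 (GFP+) and 1.06 and 1.27 (RFP+). The reporters differ in level, so these values stand side by side as a description.

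**Figure D1:**
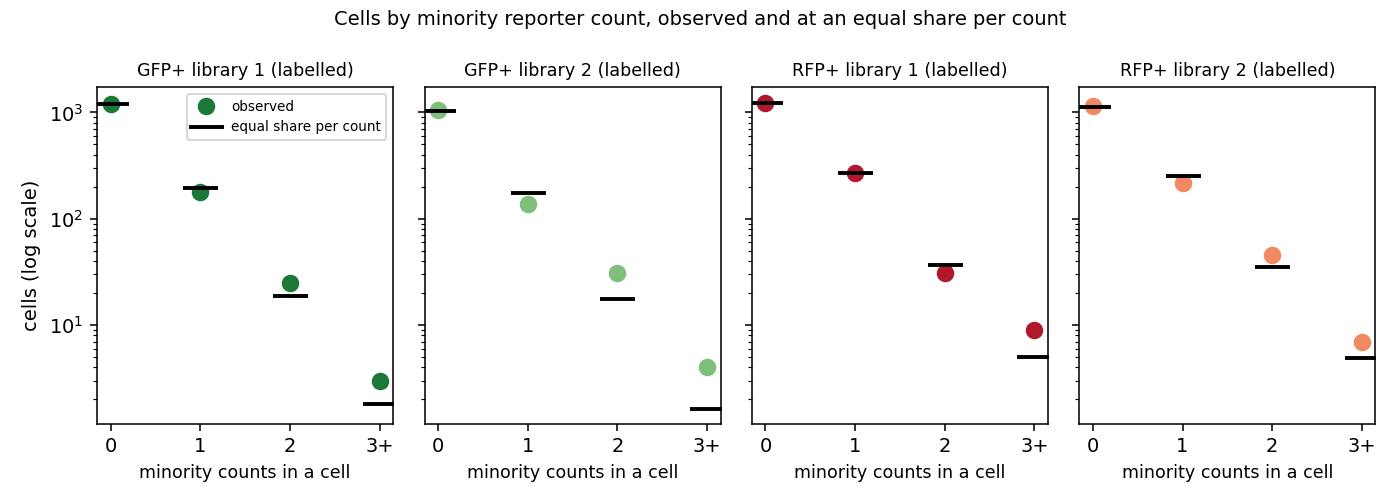
Number of cells (log axis) with 0, 1, 2 and 3 or more minority reporter counts in each library. Coloured points are observed cells and black bars are the numbers expected if every count had an equal share. The points lie near the bars, with more cells at 2 or more counts than expected in GFP+ library 2 (35 against 19.1).

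The highest minority count in a cell was 3 and 6 in the GFP+ labelled libraries and 4 and 9 in the RFP+ labelled libraries. The RFP+ labelled cell with 9 CUSTOM_RFP counts had 0 CUSTOM_GFP counts among 2863 in all. Its epithelial genes, the 44 listed keratins, claudins, adhesion and secretory genes, made up 0.175% of its counts, and its mesenchymal genes, the 45 listed filament, matrix and motility genes with a row, made up 3.04%. In that library the epithelial share of a cell ran from 0.189% at the 5th to 1.17% at the 95th percentile, with a median of 0.604%, and the mesenchymal share from 1.34% to 3.44%. The cell's epithelial share, from 5 counts, was on the side of the GFP+ labelled libraries, as were its reporter counts, on which it was picked. The RFP+ labelled cells with 4 minority counts did not share this. Their epithelial shares were 0.751% and 1.35% in library 1 (median 0.589%) and 0.215%, 1.14% and 0.888% in library 2, so only 1 was below the median of its library. The GFP+ labelled cell with 6 CUSTOM_GFP counts had 3 CUSTOM_RFP counts among 6369, with 0.597% epithelial and 1.87% mesenchymal counts. The median cell of its library had 0.286% and 2.83%. The cells with 9 and 6 counts were named after their values were seen, as the highest of each population.

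Minority counts rose with a cell's total counts, while their share of those counts did not. In GFP+ labelled cells the minority reporter averaged 0.0996 counts per cell among those with at least 500 and under 1000 counts, 0.106, 0.137 and 0.185 in the next 3 bins, up to 2000 counts, and 0.292 among those with 2000 or more. The levels in the same bins were 110, 95.2, 101, 108 and 100 CPM. In RFP+ labelled cells the averages were 0.117, 0.161, 0.170, 0.222 and 0.412 counts per cell, and the levels were 133, 145, 124, 129 and 136 CPM. In each population the exact 95% intervals of the 5 levels overlapped. The majority reporter was at 2882 CPM in the lowest and 3034 CPM in the highest bin of GFP+ labelled cells. In RFP+ labelled cells it was at 640 CPM (589 to 694) in the lowest and 551 CPM (520 to 584) in the highest bin. Those intervals did not overlap, while the GFP+ ones did.

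**Figure D2:**
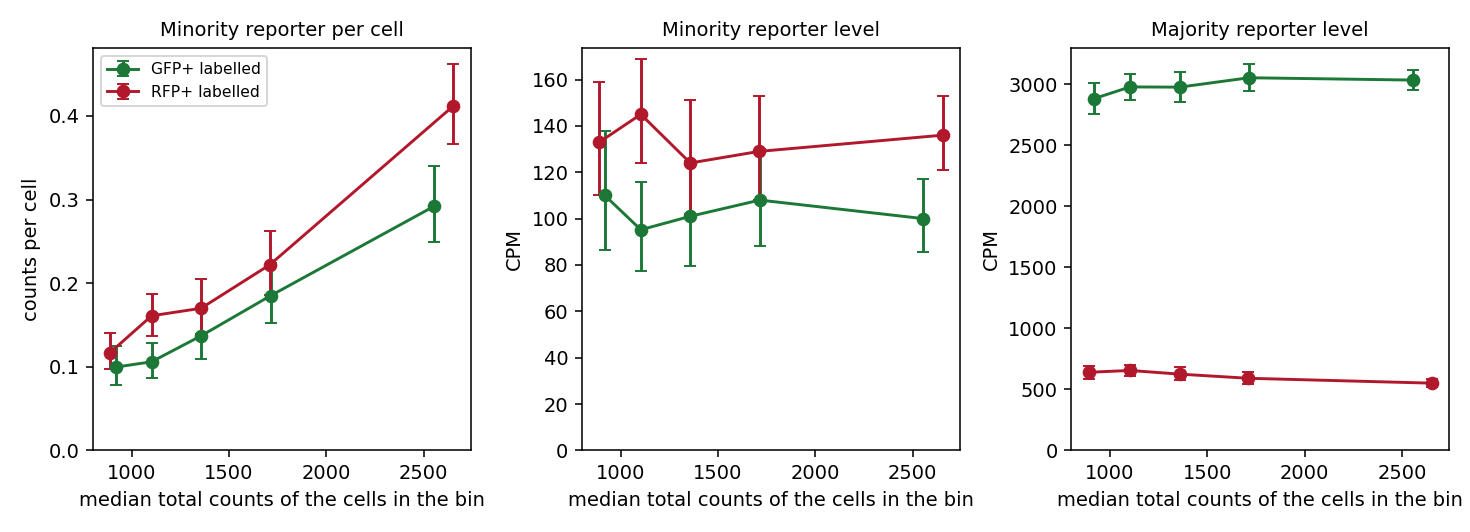
Minority reporter counts per cell (left), minority reporter level (middle) and majority reporter level (right), both levels in CPM, against the median total counts of the cells in 5 bins, with exact 95% Poisson intervals. Counts per cell climb with total counts in both populations, while the minority level stays between 95.2 and 110 CPM in GFP+ and between 124 and 145 CPM in RFP+ labelled cells.

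A rule that asks for 1 count favours cells with many counts, and carriers were deeper cells. Carriers had a median of 1686 and 1562 counts in the GFP+ labelled libraries, against 1405 and 1353 counts in other cells. In the RFP+ labelled libraries the medians were 1687 and 1641 counts in carriers, against 1346 and 1404 counts in other cells. The fits over all genes, the position of carriers and the distances between profiles were therefore repeated with 2 other cells of the nearest total count per carrier, which brought the medians of other cells to 1685 and 1561 (GFP+) and 1686 and 1641 counts (RFP+).

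Within carriers the minority reporter reached 580 and 612 CPM of CUSTOM_GFP in the GFP+ labelled libraries, which is 97.6% and 103% of its mean level over all kept cells of the RFP+ labelled libraries. CUSTOM_RFP reached 541 and 608 CPM in RFP+ labelled carriers, which is 17.9% and 20% of its mean level in the GFP+ labelled libraries. These levels follow from the rule, since 1 count in a cell of this depth is already a level of that order. They are a description and carry no test.

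The majority reporter in carriers differed from that in other cells by less than its error in both populations. CUSTOM_RFP was at 2991 and 2941 CPM in GFP+ labelled carriers, against 2952 and 3136 CPM in other cells, so carriers were higher in 1 library and lower in the other. The log2 fold of carriers over other cells was -0.04 ± 0.040 (SE; edgeR adjusted p 0.987), with a 95% interval of -0.11 to 0.04. CUSTOM_GFP was at 638 and 588 CPM in RFP+ labelled carriers, against 596 and 581 CPM in other cells. That log2 fold was 0.06 ± 0.064 (edgeR adjusted p 0.988), with an interval of -0.07 to 0.18. The intervals reach down to log2 folds of -0.11 (GFP+) and -0.07 (RFP+) for the average carrier.

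A majority count was found in 98.5% and 97.1% of GFP+ labelled carriers, against 96.8% and 97.9% of other cells, and in 67.1% and 63.6% of RFP+ labelled carriers, against 56.4% and 56.8% of other cells. After thinning every cell to 1000 counts the shares were 95% and 93.0% of GFP+ labelled carriers, against 92.5% and 94.9% of other cells. In RFP+ labelled libraries they were 45.0% and 48.0% of carriers, against 44.4% and 42.1% of other cells, and the exact 95% intervals of carriers and other cells overlapped in each library. Cells with minority counts only were 8 of 378 GFP+ labelled and 199 of 576 RFP+ labelled carriers.

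Across the transcriptome, few genes differed between carriers and other cells. Counts were summed per library and status, and the 8 sums were fitted together with the library as a block. Of 5585 genes tested with edgeR's quasi-likelihood test, 0 were called in the GFP+ labelled libraries at an adjusted p under 0.05, or 0% of those tested, while 324 had an unadjusted p under 0.05 and DESeq2 called 0. In the RFP+ labelled libraries 2 genes were called, 0.0358% of those tested, both lower in carriers, with 322 at an unadjusted p under 0.05. The mean carrier effect over the 4 libraries gave the same 2 genes, again 0.0358%, with 323 at an unadjusted p under 0.05. The difference of the carrier effect between GFP+ and RFP+ labelled libraries gave 1 gene, 0.0179%, with 293 at an unadjusted p under 0.05. These unadjusted counts were 5.80% (GFP+), 5.77% (RFP+), 5.78% (mean) and 5.25% (difference) of genes tested. They are near the share of 0.05 that would pass with no difference at all. DESeq2's Wald test called 0 genes in each of the 4 comparisons. It had 6 (GFP+), 6 (RFP+), 3 (mean) and 5 (difference) genes at an unadjusted p under 0.05, or 0.0537% to 0.107%. Such a fit could hardly call any gene, so its 0 calls are no check on those of edgeR.

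The genes lower in RFP+ labelled carriers were mt-Rnr1 and mt-Rnr2, the small and large ribosomal RNAs encoded in the mitochondrial genome (GENCODE M21 on GRCm38, chromosome M, 70 to 1024 and 1094 to 2675). mt-Rnr1 was at 296 and 342 CPM in RFP+ labelled carriers, against 497 and 445 CPM in other cells, so the groups did not overlap. Its log2 fold was -0.58 ± 0.085 (edgeR adjusted p 3.79e-08). mt-Rnr2 was at 3977 and 3748 CPM in RFP+ labelled carriers, against 4664 and 4346 CPM in other cells, a log2 fold of -0.22 ± 0.032 (edgeR adjusted p 2.41e-08). In GFP+ labelled libraries mt-Rnr1 was at 392 and 352 CPM in carriers and 428 and 339 CPM in other cells, and mt-Rnr2 at 2842 and 2000 CPM in carriers and 2795 and 2560 CPM in other cells. Neither passed there, at edgeR adjusted p values of 0.995 and 0.510, although without GFP+ library 1 mt-Rnr2 was called lower in GFP+ labelled carriers (log2 fold -0.36, edgeR adjusted p 2.71e-06).

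Total counts moved with both RNAs. Among other cells of the RFP+ labelled libraries, mt-Rnr2 was at 5923 and 6231 CPM in the shallowest of 4 depth classes and at 3304 and 2618 CPM in cells with 2000 or more. Set against other cells of the same depth, mt-Rnr2 was at 3977 and 3748 CPM in RFP+ labelled carriers and at 4150 and 3877 CPM in matched cells, and its call was lost, at a log2 fold of -0.05 (edgeR adjusted p 0.980). mt-Rnr1 in matched cells was at 485 and 408 CPM and its call held, at a log2 fold of -0.50 (edgeR adjusted p 0.00105). Thinning left fewer RFP+ labelled carriers, 189 and 177, and those that lost their minority counts joined other cells. Both calls were lost after thinning, with log2 folds of -0.23 for mt-Rnr1 and -0.03 for mt-Rnr2. The edgeR adjusted p was 0.996 for each. Both were lost without RFP+ library 1 too, at log2 folds of -0.39 for mt-Rnr1 (edgeR adjusted p 0.571) and -0.22 for mt-Rnr2 (0.0649). The mt-Rnr2 call was also lost without the block, again at -0.22 (0.488). Of the 8 mitochondrially encoded genes tested, 6 had a negative log2 fold in GFP+ labelled carriers and 7 in RFP+ labelled carriers, with medians of -0.03 (GFP+) and -0.20 (RFP+), against medians of 0.01 (GFP+) and 0.00 (RFP+) over all genes tested.

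**Figure D3:**
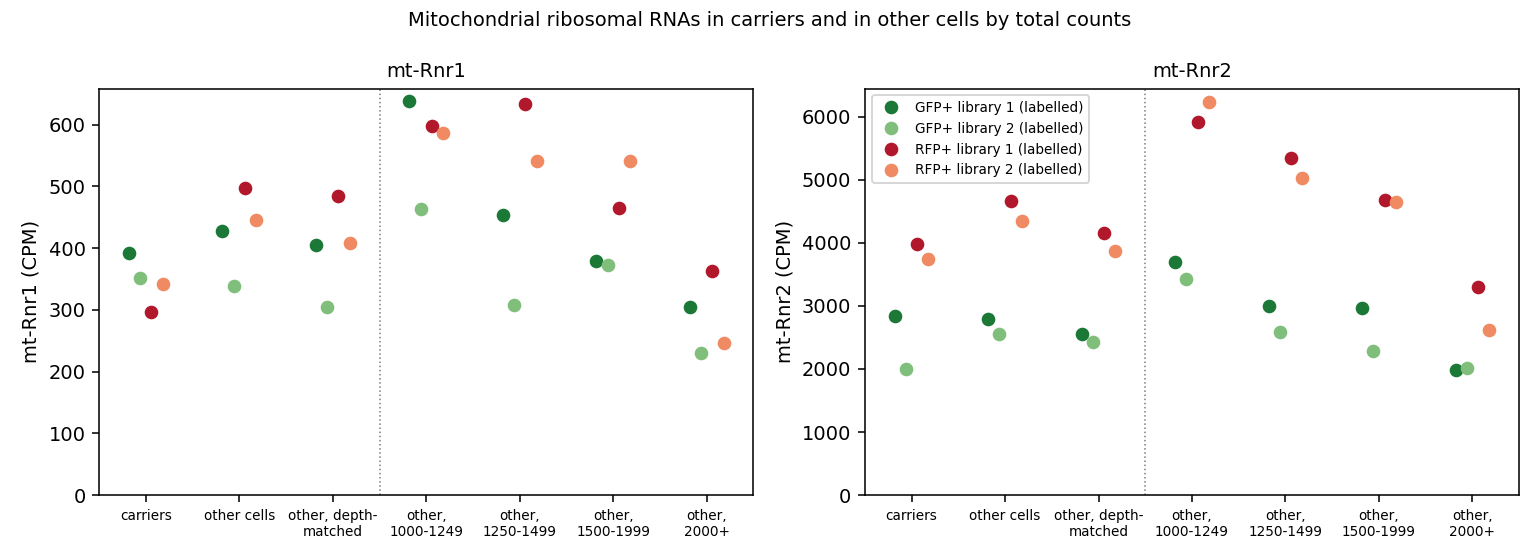
Levels in CPM of the mitochondrial ribosomal RNAs mt-Rnr1 (left) and mt-Rnr2 (right) in carriers, in all other cells, in depth-matched other cells and in 4 depth classes of other cells, 1 point per library. mt-Rnr2 is lower in deeper cells of every library, and RFP+ labelled carriers (3977 and 3748 CPM) lie close to matched cells (4150 and 3877 CPM).

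Uba3 was the gene whose carrier effect differed between populations. It encodes the catalytic subunit of the enzyme that activates NEDD8, a ubiquitin-like protein, and lies on the minus strand of chromosome 6 (97183670 to 97205647, GENCODE M21 on GRCm38). Uba3 was at 31.8 and 42.9 CPM in GFP+ labelled carriers, from 13 and 15 counts, against 75 and 79.9 CPM in other cells. In RFP+ labelled libraries it was at 78.6 and 98.9 CPM in carriers, against 58.1 and 65.8 CPM in other cells. Carriers were thus lower in both GFP+ and higher in both RFP+ labelled libraries. The log2 fold was -1.06 ± 0.27 in GFP+ labelled libraries (edgeR adjusted p 0.117) and 0.51 ± 0.18 in RFP+ labelled libraries (0.789), neither called, and the difference was -1.57 (edgeR adjusted p 0.00543). The difference was not called without GFP+ library 1 (-1.41, edgeR adjusted p 0.448), without GFP+ library 2 (-1.75, 0.0544), without RFP+ library 2 (-1.49, 0.0900) or after thinning (-1.39, 0.972). With matched cells it was -1.74 (edgeR adjusted p 0.00353), and the GFP+ fold alone was then called at -1.23 (0.0479).

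Genes of lowest p among those not called showed how far the data reached. Nfib, a transcription factor of the nuclear factor I family, was at 279 and 278 CPM in GFP+ labelled carriers, against 196 and 189 CPM in other cells, and at 187 and 205 CPM in RFP+ labelled carriers, against 226 and 211 CPM in other cells. Its log2 fold in GFP+ labelled libraries was 0.53 ± 0.13 (edgeR adjusted p 0.0640). It passed with matched cells (0.66, 0.0285) and among cells with 1500 or more counts (0.74, 0.00199), and under no other alternative. Vps28, a subunit of the ESCRT-I sorting complex, was at 121 and 95.3 CPM in RFP+ labelled carriers, against 64.1 and 72.6 CPM in other cells, a log2 fold of 0.67 ± 0.17 (edgeR adjusted p 0.0815). Malat1, an abundant nuclear RNA, was at 2029 and 1519 CPM in GFP+ labelled carriers, against 1980 and 2028 CPM in other cells, so carriers were higher in library 1 and lower in library 2.

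Genes that separate the populations served to place carriers between them. Epithelial genes as a group were at 3757 and 3531 CPM in GFP+ labelled carriers, against 3426 and 3229 CPM in other cells, higher in carriers of both libraries. In RFP+ labelled libraries they were at 6177 and 6259 CPM in carriers, against 6223 and 6392 CPM in other cells. The carriers of GFP+ labelled libraries thus stayed far below any RFP+ labelled group. Of the 44 listed, 28 were tested and 0 were called in either population, with 21 positive and 7 negative log2 folds in GFP+ and 10 and 18 in RFP+ labelled libraries. Their median log2 fold was 0.14 in GFP+ and -0.04 in RFP+ labelled libraries, against 0.01 and 0.00 over all genes tested.

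Among the epithelial genes, Krt18, a keratin of simple epithelia, was at 414 and 401 CPM in GFP+ labelled carriers, against 354 and 368 CPM in other cells, and at 996 and 992 CPM in RFP+ labelled carriers, against 991 and 1057 CPM in other cells. Wfdc2, a secreted whey acidic protein family member, was at 597 and 546 CPM in GFP+ labelled carriers, against 519 and 466 CPM in other cells, a log2 fold of 0.21 ± 0.082 (edgeR adjusted p 0.826). It was at 1085 and 1043 CPM in RFP+ labelled carriers, against 1047 and 1047 CPM in other cells. Epcam, an adhesion molecule of epithelial cells, was at 252 and 206 CPM in GFP+ labelled carriers, against 216 and 217 CPM in other cells. Cdh1, which encodes E-cadherin, was at 34.8 and 28.8 CPM in RFP+ labelled carriers, against 49.2 and 50.8 CPM in other cells, a log2 fold of -0.64 ± 0.25 (edgeR adjusted p 0.800), where the populations differed by -1.01. In GFP+ labelled libraries its log2 fold was 0.35 ± 0.34. Krt8, Krt7, Krt14, Cldn3 and Lcn2 were not called either, and the carriers' log2 folds for them ran between -0.37 and 0.25.

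Mesenchymal genes as a group were at 26632 and 27981 CPM in GFP+ labelled carriers, against 27075 and 28030 CPM in other cells, and at 22714 and 23547 CPM in RFP+ labelled carriers, against 23501 and 23375 CPM in other cells. Of 48 listed, 23 were tested and 0 called, with medians of 0.00 and -0.03. S100a4 itself, the gene whose promoter drives Cre, was at 1738 and 1948 CPM in GFP+ labelled carriers, against 1862 and 2123 CPM in other cells. In RFP+ labelled libraries S100a4 was at 552 and 674 CPM in carriers, against 661 and 686 CPM in other cells. It was lower in carriers of all 4 libraries, by log2 folds of -0.11 ± 0.048 (GFP+) and -0.15 ± 0.064 (RFP+), with edgeR adjusted p values of 0.826 and 0.825. The RFP+ fold was -0.03 without RFP+ library 1, -0.26 without RFP+ library 2, 0.03 after thinning, 0.11 with 2 or more minority counts and 0.01 without the deepest 5% of cells, so its sign was not stable. Vim, the main mesenchymal filament protein, was at 3258 and 3442 CPM in GFP+ labelled carriers, against 3169 and 3339 CPM in other cells, and its log2 folds were 0.04 ± 0.039 and 0.01 ± 0.041. Sparc, a matrix-binding glycoprotein gene, had log2 folds of -0.21 ± 0.075 and -0.05 ± 0.081, and Emp3 had -0.17 ± 0.16 and -0.56 ± 0.23, neither called.

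**Figure D4:**
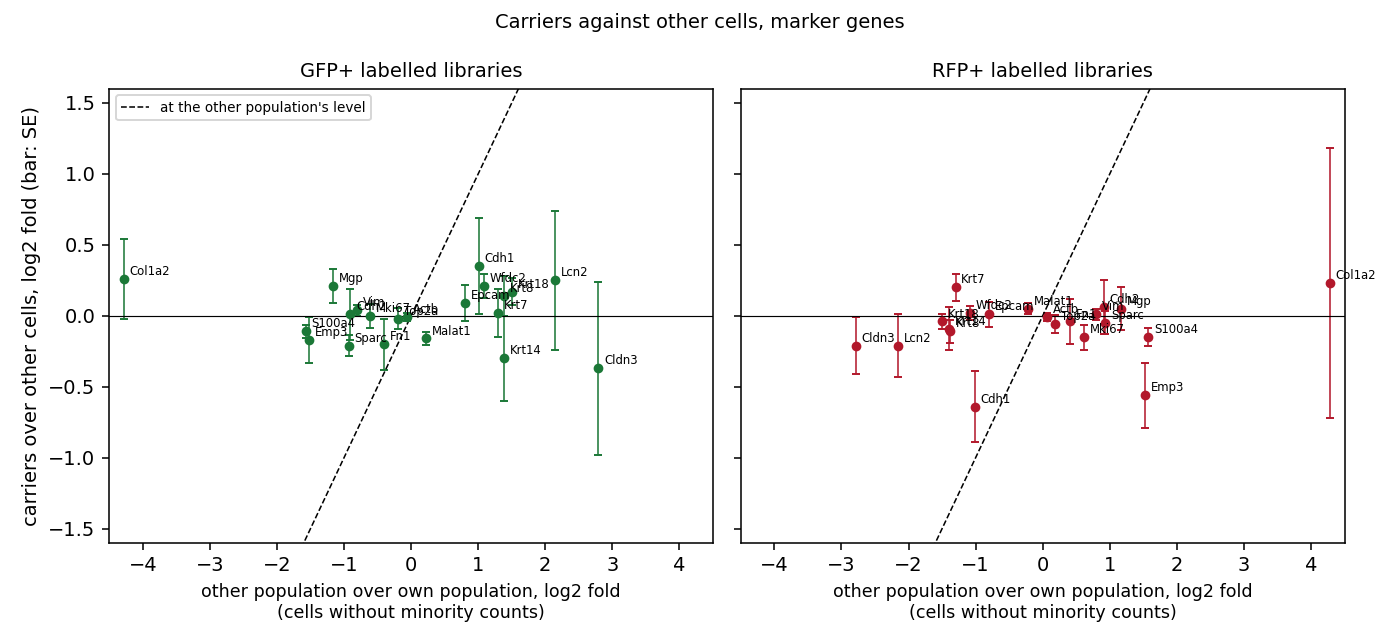
Log2 fold of carriers over other cells (vertical, bars are SE of the edgeR fit) against the log2 fold of the other population over the own population (horizontal) for the marker genes tested, GFP+ labelled libraries on the left and RFP+ on the right. Genes at the other population's level would lie on the dashed line; most points lie nearer to 0, for example Krt18 at 0.17 and -0.04 and S100a4 at -0.11 and -0.15, while Cdh1 in RFP+ labelled carriers (-0.64 ± 0.25) lies nearer to the dashed line (-1.01).

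Proliferation and stress genes gave no calls. Of the G1/S list 40 genes were tested and of the G2/M list 51, with 0 called in either population. Median log2 folds lay between -0.01 and 0.03, beside 0.01 and 0.00 over all genes. Mki67, a marker of dividing cells, was at 563 and 538 CPM in GFP+ labelled carriers, against 574 and 523 CPM in other cells, and at 317 and 336 CPM in RFP+ labelled carriers, against 379 and 342 CPM in other cells. Hmmr, a G2/M gene among those of lowest p in GFP+ labelled libraries, was at 274 and 235 CPM in carriers there, against 323 and 353 CPM in other cells. Its log2 fold was -0.40 ± 0.12 (edgeR adjusted p 0.453) in GFP+ labelled libraries. Of the 51 G2/M genes, 25 had positive and 26 negative log2 folds there. Of 18 dissociation and heat stress genes tested, 0 were called. Actb, the cytoplasmic actin gene, had a log2 fold of -0.01 in both populations.

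A position was computed for carriers on the line between the populations, over all genes with enough counts and without the reporter rows. On that scale 0% is the profile of other cells of the same population and 100% that of other cells of the other population. GFP+ labelled carriers lay at 5.00% (95% interval from counting error 3.28 to 6.73) in library 1 and 5.37% (3.58 to 7.16) in library 2, a mean of 5.19% ± 0.261 (SD, n = 2). RFP+ labelled carriers lay at -4.23% (-5.59 to -2.88) and -3.22% (-4.69 to -1.75), a mean of -3.73% ± 0.719. GFP+ labelled carriers thus stood slightly on the RFP+ side of their own population, and RFP+ labelled carriers slightly away from the GFP+ population. With 2 libraries per population no permutation test can reach 0.05, and none was made.

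Other cells, split by total counts alone, moved too. Each class was set against all other cells of its library, itself included, which draws its value towards 0. Carriers were set against cells apart from them. In GFP+ labelled libraries they lay between -6.43% (the second shallowest of 4 classes in GFP+ library 1) and 5.90% (cells with 2000 or more counts in the same library). Those of RFP+ labelled libraries lay between -3.60% and 4.78%. In the top class GFP+ library 2 lay at 1.35%, and the RFP+ labelled libraries at 2.44% and -1.82%. Against depth-matched other cells the carriers lay at 2.41% and 3.89% in GFP+ and at -7.49% and -3.50% in RFP+ labelled libraries. After thinning, which also moved cells that lost their minority counts to other cells, the means were 2.86% in GFP+ and -0.196% in RFP+ labelled libraries. GFP+ library 1 carriers thus lay within the range of the depth classes of their own library. GFP+ library 2 carriers (5.37%, 3.58 to 7.16) lay above all classes of theirs, which ran from -3.50% to 1.35%. RFP+ labelled carriers were at -4.23%, beside a lowest class of -3.60%, in library 1. In library 2 they were at -3.22%, beside -2.02%, and the intervals overlapped in both. Since class values are drawn towards 0, the order of carriers and lowest class was not settled. Values against matched cells have another zero point and cannot be set against the classes. None of these shifts approached 100% or the midpoint.

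A higher minority count did not move cells steadily towards the other population. Carriers with 1 count lay at 6.85% and 1.74% in GFP+ and at -4.40% and -2.66% in RFP+ labelled libraries. Those with 2 or more lay at -3.60% and 15.5% in GFP+ labelled libraries, on 28 and 35 cells, and at -3.42% and -5.10% in RFP+ labelled libraries, on 40 and 53 cells. GFP+ library 2, which held the excess of cells with 2 or more counts, was also the library in which those cells stood farthest towards the RFP+ labelled profile (12.3 to 18.7%). Its 4 cells with 3 or more counts lay at 15.9% (8.73 to 23.0), while the 3 such cells of GFP+ library 1 lay at -6.13% (-13.5 to 1.22). RFP+ labelled carriers with 3 or more counts lay at 4.35% and 5.14%, on 9 and 7 cells, each with an interval that reached below 0. Their mean of 4.75% (0.199 to 9.30) had the opposite sign to that of all RFP+ labelled carriers.

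**Figure D5:**
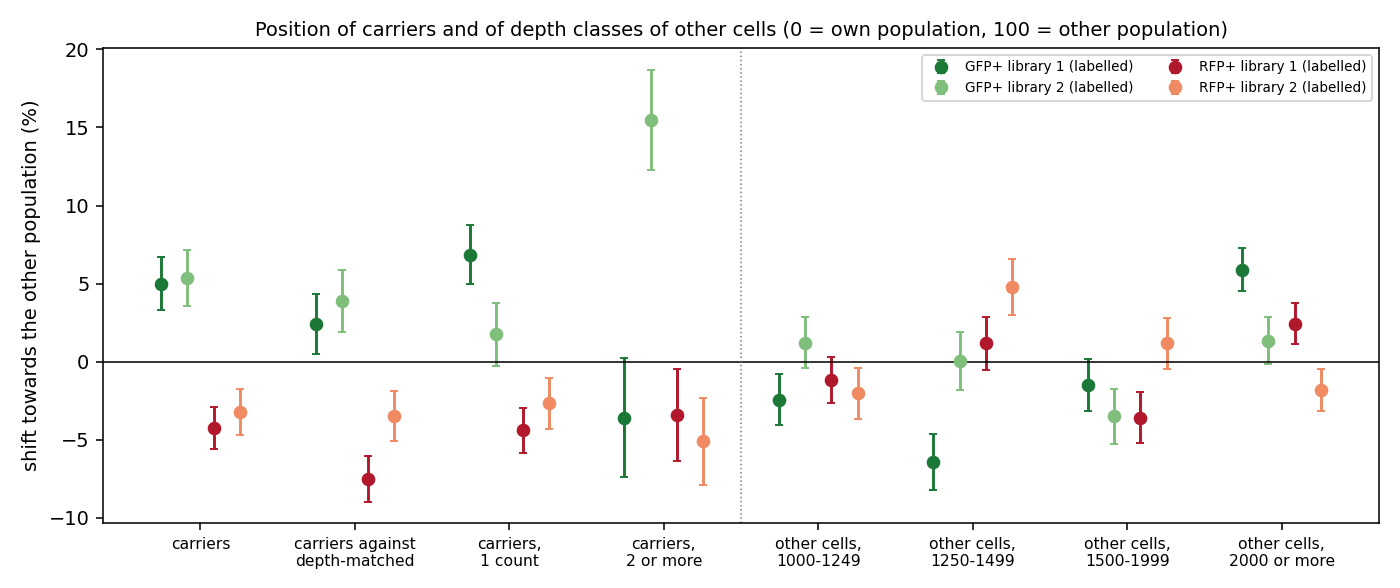
Position in percent between the own population (0) and the other population (100) of carriers, of carriers by minority count and of other cells split by total counts, 1 point per library with 95% intervals from counting error. GFP+ library 1 carriers (5.00%) lie inside the range of the depth classes of their own library (-6.43 to 5.90%). GFP+ library 2 carriers (5.37%) lie above theirs (-3.50 to 1.35%). RFP+ labelled carriers are at -4.23% (classes -3.60 to 2.44%) in library 1 and -3.22% (classes -2.02 to 4.78%) in library 2. Each class is set against all other cells, itself included, which draws it towards 0, so that order is not settled. The cells with 2 or more counts of GFP+ library 2 stand apart at 15.5%.

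Carriers without a majority count were examined apart, since they are the cells whose reporter counts are those of the other population alone. In RFP+ labelled libraries, 101 and 98 such carriers lay at -1.20% (-3.63 to 1.24) and -7.05% (-9.55 to -4.56), not towards the GFP+ labelled profile. Other cells without a majority count, 540 and 498 in number, lay at -3.89% and 3.35% there. In GFP+ labelled libraries only 3 and 5 carriers lacked a majority count, and they lay at 2.70% (-12.8 to 18.2) and 12.5% (0.979 to 24.0).

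Distances between whole profiles were also measured. The chi-square per degree of freedom between carriers and other cells of a library, over genes with at least 50 counts in the pair, was 1.10 and 1.13 in GFP+ and 1.15 and 1.12 in RFP+ labelled libraries. Between the other cells of the 2 libraries of a population it was 1.41 (GFP+) and 1.34 (RFP+). Between carriers of the 2 populations it was 3.51 for library 1 and 3.03 for library 2 of each. The values depend on the counts behind each pair, and larger sums give larger values for the same difference, so they are given side by side as a description. With the same restriction, carriers and depth-matched other cells had 1.07 and 1.12 in GFP+ and 1.14 and 1.14 in RFP+ labelled libraries.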

How the data were processed

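The deposited values are unnormalized counts (16647 gene rows by 7400 cells, whole numbers up to 342), and no other unit was used. Reads were placed on GRCm38, per the submitters' processing notes. The aligner, the collapsing of molecular identifiers and the selection of cells: not given in the sources used here. Column names tell 4 libraries apart, each with its 2 lanes pooled, and the library is the replicate.

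Cells with 1000 or more counts were kept, and no doublets were called. Carriers were selected on 1 or more minority reporter counts. After thinning they were called again, so cells that lost their minority counts joined other cells. Counts of carriers and other cells were summed per library. Genes with a mean of at least 20 CPM over the 8 sums were fitted with the quasi-likelihood test of edgeR 4.0.16 (R 4.3.3). Scaling was by TMM, and p-values were adjusted by Benjamini and Hochberg's method over 5585 genes. The design had the library as a block, since both sums of a library come from it, and 1 carrier effect per population. The size of a log2 fold divided by the root of its F gives the SE. Reporter rows stayed out of totals, and the majority reporter of each library entered as 1 row. The common biological coefficient of variation was 0.0194 and 2 residual degrees of freedom remained, so errors rest on a dispersion shared across genes. DESeq2 1.42.0 was an alternative. The fit and the position were tested on simulated data. The position is the weighted least-squares projection of the carrier minus other-cell profile on the difference between populations. Its own-population profile comes from the other library of that population.

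The text names genes from a marker set, called genes, the genes of lowest p where few were called, and up to 3 members per list. Not every gene the rule names is reported. Members, lists and tests were chosen with earlier results of these data known. Names were matched to GENCODE M21. Intervals are exact at 95%, or normal for folds and positions. The exact ones and those of positions cover counting error only, while those of folds use the SE of the edgeR fit. Alternatives were another filter, scaling and test, no block, thinning to 1000 counts, depth matching, other minimum counts, 2 or more minority counts, no top 5% of cells, and leaving out each library.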

Additional observations from a re-analysis of the deposited data

Results flagged for a closer look

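The carrier effect on Uba3 differed between the populations by a log2 fold of -1.57, GFP+ minus RFP+ labelled libraries, with an edgeR adjusted p of 0.00543. It was lower in carriers of both GFP+ labelled libraries and higher in carriers of both RFP+ labelled libraries. Uba3 rests on 13 and 15 counts in GFP+ labelled carriers. DESeq2, whose fit could hardly call any gene, did not call the difference. The difference was also not called after thinning or at a minimum of 500 or 1500 counts. Nor was it called with 2 or more minority counts or without the deepest 5% of cells.

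The position shift of carriers had opposite signs, at a mean of 5.19% in the GFP+ and -3.73% in the RFP+ labelled libraries, with both libraries of a population on the same side. That difference was not tested. Total counts moved with carrier status in every library. After thinning to 1000 counts, with carriers called again, the means were 2.86% and -0.196%.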

How the results depend on the processing

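Counts of called genes stayed between 0 and 3 of the genes tested under every alternative. DESeq2, with 3 to 6 genes at an unadjusted p under 0.05 per comparison, could hardly call any. For GFP+ labelled carriers, with 0 genes in the reported fit, depth matching gave 2, and thinning, a minimum of 500 or 1500 counts and leaving out the deepest 5% of cells gave 1 each. For RFP+ labelled carriers, with 2 in the reported fit, DESeq2 and thinning gave 0, and depth matching and no deepest 5% gave 1. For the mean effect, with 2 in the reported fit, DESeq2, depth matching, a minimum of 1500 counts and no deepest 5% gave 0, and thinning gave 1. For the difference between populations, with 1 in the reported fit, a 50 CPM filter and depth matching gave 2, and DESeq2, thinning, carriers with 2 or more counts and a minimum of 500 counts gave 0. Without the replicate block that pairs the sums of a library, the RFP+ count was 1 and the mean count 0. Leaving out a library gave 0 to 2 calls in GFP+, 0 to 3 in RFP+, 1 to 2 for the mean and 1 to 3 for the difference. Without GFP+ library 1, where GFP+ library 2 stands alone and is taken to vary like the other libraries, Malat1 (log2 fold -0.42, edgeR adjusted p 2.58e-06) and mt-Rnr2 (-0.36, 2.71e-06) were called lower in GFP+ labelled carriers.

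The majority reporter was never called. In GFP+ labelled carriers its log2 fold was 0.05 after thinning, 0.01 without the deepest 5% of cells, -0.12 with 2 or more minority counts, -0.08 at a minimum of 1500 counts, and -0.10 to 0.01 with a library left out. In RFP+ labelled carriers it was 0.14 at a minimum of 1500 counts and 0.13 without the deepest 5%.

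The mean GFP+ position of 5.19% stayed above 0: 2.86% after thinning, 3.15% with matched cells, 3.25% without the deepest 5%, 4.69% at a minimum of 1500 counts, 5.95% with 2 or more counts (the libraries at -3.60 and 15.5%), 5.50% with a 50 CPM filter, 4.72% with no filter, 5.82% without mitochondrially encoded and ribosomal protein genes, and 4.82 to 5.37% with a library left out. The RFP+ position of -3.73% stayed below 0: -0.196% after thinning, -1.41% without the deepest 5%, -5.50% with matched cells, -5.25% as a log2 slope and -4.95% without those genes. For these changes the cause was not tested. The ratio of RFP+ labelled cells with 2 or more counts to equal shares was 1.42 after thinning. Of 732 values of single genes under alternatives, 579 stayed on the same side of the threshold and within 1 SE if not called, 109 were not called and moved by more than 1 SE, 34 lost a call and 10 gained one. The sign turned in 62 of them, none called in either fit, so 0 called values reversed. With 172 to 307 carriers per library, genes under about 50 CPM rest on few counts in carriers, and small differences there were not detectable at this depth.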

Other observations

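Among cells with at least 500 and under 1000 counts, which lie outside the comparisons, 74 minority counts were found in 743 GFP+ labelled cells and 120 in 1027 RFP+ labelled cells. These are 110 CPM (86.4 to 138) and 133 CPM (110 to 159), close to the levels in the deeper cells of each population.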
